A study of Mus musculus with 6 samples.

Results

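The genes described here are those of the insulin-like growth factor (IGF) system that mesenchymal and fat cells make: the ligands Igf1 and Igf2, the receptor Igf1r, the binding proteins Igfbp2 to Igfbp7 and the protease Pappa. A gene was taken where a probe set of the array is annotated with exactly 1 symbol and that symbol is its own. This gave 10 genes of 18193 and 29 probe sets of 45037, and each gene is represented by its brightest probe set, by the mean over all arrays. Pappa was picked on its measured difference, because it was higher in the irradiated culture of all 3 experiments, and so its irradiated-minus-control values are given as a description, with no test. The other 9 genes were chosen for their family.

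The cells were mouse mesenchymal stem cells bought from a supplier, with strain, sex and age not given in the sources used here. Irradiated cultures stood for 2 h under a continuous 2.52 THz laser (wavelength 118.8 µm), and control cultures stood beside them without irradiation, both at 26 to 27 °C. All cultures, controls included, grew in medium with 5% serum and received 1 µM rosiglitazone, 5 µg/ml insulin, 100 µM isobutylmethylxanthine and 1 µM dexamethasone again 48 h before exposure, a mixture commonly used to turn such cells into fat cells. Each of 3 independent experiments gave 1 irradiated culture and its own control, which made 3 arrays per group, and the RNA was isolated directly at the end of exposure. Insulin at high concentration can itself act on the IGF receptor, and it was present in both groups.

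IGF1 and IGF2 are small secreted hormones that drive growth and survival through the receptor tyrosine kinase IGF1R, and in cultured preadipocytes this receptor is a main route by which insulin-like signals start fat-cell formation. The binding proteins hold most of the secreted hormone and keep it from the receptor. Pappa encodes pregnancy-associated plasma protein A, a secreted metalloprotease that cuts IGFBP4 and also IGFBP2 and IGFBP5, and so frees the bound hormone close to the cell. Many stromal cells make the hormone, the binding proteins and the protease together.

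Values are log2 expression values made by the authors with RMA, a method that brings all arrays to one distribution. They lay between 1.73 and 14.53, the median gene was at 6.46, and array medians lay between 5.01 and 5.04. A difference of 1 on this scale is a doubling. Levels of different probe sets depend on their probes too, so 2 genes' levels give no ratio of their RNAs. The labelled cell type was checked on its markers. Of 9 measured stromal markers 8 reached the level of the median gene, as did all 6 measured fat-cell markers and 8 of 10 macrophage markers, among them Csf1r at 12.78 and Lyz2 at 14.17. Of the other lists, 0 of 5 endothelial, 0 of 4 lymphocyte, 1 of 5 epithelial, 2 of 4 osteoblast and 3 of 5 smooth muscle markers reached it. Arrays were unlike one another within both groups. Macrophage markers averaged 9.77 to 10.40 in irradiated and 9.92 to 10.18 in control arrays. The irradiated array of experiment 2 had the lowest mean of the fat-cell markers (11.83). The control of experiment 1 had the highest means of the smooth muscle (8.05) and osteoblast (7.335) markers among the 6 arrays. The control of experiment 2 had the highest mean of the fat-cell markers (12.30, against 11.83 to 12.11 in the other arrays) and the lowest of the smooth muscle markers (7.43, against 7.60 to 8.05). The control of experiment 3 differed in the 3′ minus 5′ control probe sets of actin, a measure of RNA integrity, at 0.68 against 0.50 to 0.57.

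No gene of the IGF system passed the test for irradiation. A limma fit blocked on experiment called 0 of the 9 genes that were tested, and 0 of them had an unadjusted p under 0.05. Over all genes it called 0 of 18193 (0%), with 603 at an unadjusted p under 0.05 (3.31%). The 9 mean differences lay between -0.04 and 0.077 log2 units, 6 above 0, 2 below and 1 at 0, with a median of 0.033 beside -0.01 over all genes. The 95% confidence intervals of all 9 lay within 1.3-fold of no change. None of the 9 kept its sign in all 3 experiments, against 21% of all genes in either direction. The groups overlapped for 9 of the 10 genes, and over all genes 8.26% had groups that did not overlap. Leaving out 1 experiment turned the sign of the mean for 8 of the 9. The remaining gene, Igfbp7, had a mean of 0 and so no sign to turn. With means this close to 0 a small shift turns a sign, and the count was not made over all genes.

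**Figure D1:**
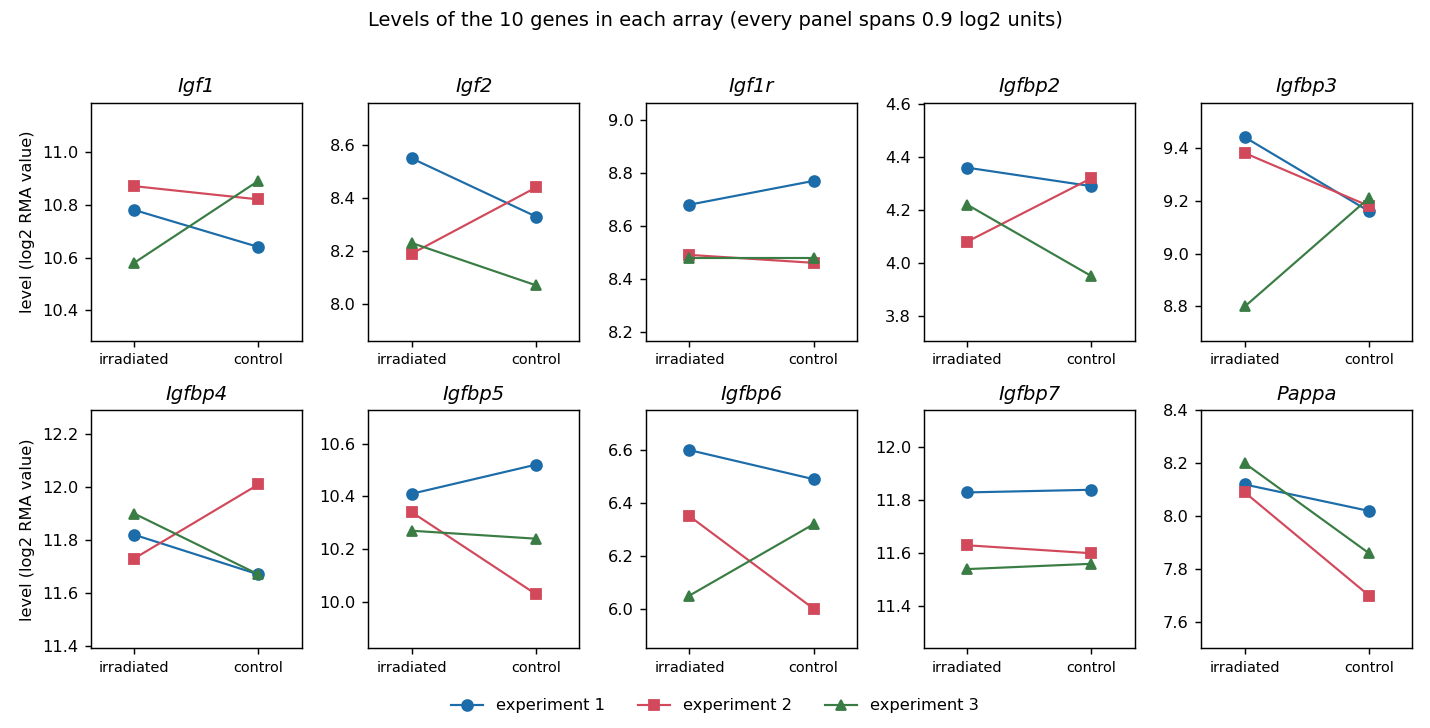
Level (log2 RMA value) of each of the 10 genes in the 3 irradiated arrays (left of each panel) and the 3 control arrays (right), with a line joining the cultures of one experiment, and every panel spanning the same 0.9 log2 units. Lines cross in most panels, run level for Igf1r and Igfbp7, and all slope the same way for Pappa, the gene chosen for that.

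Igf1, the ligand that both stromal cells and macrophages are known to make, was bright. Its level was 10.78, 10.87 and 10.58 in the irradiated cultures of experiments 1 to 3, against 10.64, 10.82 and 10.89 in their controls, higher than 93.95% of genes on the array's scale. The irradiated culture was the higher one in experiments 1 and 2 and the lower one in experiment 3, and the groups overlapped. The mean difference was -0.04 ± 0.24 log2 units (SD, n = 3 experiments) (limma, Benjamini-Hochberg adjusted p 0.995). All 4 probe sets of Igf1 were higher in the irradiated culture of experiment 1, by 0.04 to 0.17, and all 4 were lower in that of experiment 3, by -0.42 to -0.12. In experiment 2 they ran from -0.17 to 0.10. Without the control of experiment 3, whose actin values stood apart, and without the block, Igf1 was at 0.013. Macrophage markers averaged 9.77 to 10.40 in irradiated and 9.92 to 10.18 in control arrays, and their difference in experiments 1 to 3 was -0.16, 0.012 and 0.25, of opposite sign to that of Igf1 in experiments 1 and 3. RNA from a whole culture cannot tell fewer cells of a type from less RNA per cell.

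Igf2, the ligand expressed from the paternal allele only in most mouse tissues, read 8.55, 8.19 and 8.23 in irradiated cultures and 8.33, 8.44 and 8.07 in controls. It was higher in the irradiated culture of experiments 1 and 3 and lower in that of experiment 2. The mean difference was 0.043 ± 0.26 log2 units (SD, n = 3) (limma, Benjamini-Hochberg adjusted p 0.995). A second probe set, near the bottom of the scale at a mean of 3.365, gave another picture. There the irradiated arrays read 3.38, 3.60 and 3.46, all above the controls at 3.30, 3.26 and 3.19, with a difference of 0.23 (SE 0.094) and an unadjusted p of 0.0433 in limma. It was the only one of the 26 probe sets of the 9 tested genes with an unadjusted p under 0.05, against 3.77% of all probe sets, and its adjusted p was 0.995. In experiment 2 the bright and the dim probe set of Igf2 had opposite signs, -0.25 and 0.34.

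Igf1r, the receptor that both ligands and, more weakly, insulin activate, differed little between the groups on its brightest probe set. It read 8.68, 8.49 and 8.48 in irradiated cultures, against 8.77, 8.46 and 8.48 in controls, with a mean difference of -0.02 ± 0.062 log2 units (SD, n = 3; 95% interval -0.21 to 0.17). Both arrays of experiment 1 were above the other 4. The next 2 probe sets, at levels of 8.27 and 7.61, read 0.28 and 0.39 in experiment 2 and were at or below 0 in experiments 1 and 3. A dim one at 4.62 had irradiated arrays at 4.65, 4.74 and 4.71, against controls at 4.53, 4.46 and 4.61, and the dimmest had a mean difference of -0.18. Averaged over all 5 probe sets the difference was 0.0067.

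Both the widest and the narrowest spread of differences over the 3 experiments belonged to binding proteins. Over all genes the SD of the 3 differences had a median of 0.14 log2 units. It was 0.38 for Igfbp3, above 95.19% of genes, 0.31 for Igfbp6 (above 89.99%) and 0.27 for Igfbp4 (above 85.13%). At the other end Igfbp7 had 0.026, above only 3.31% of genes. Other probe sets of these 2 extremes were less extreme. The other one of Igfbp3 had an SD of 0.091, and the other 2 of Igfbp7 had 0.08 and 0.125. The 6 probe sets of Igfbp4 lay between 0.27 and 0.38. The plot of the differences by experiment shows the unequal spreads of the binding proteins' brightest probe sets around means close to 0.

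**Figure D2:**
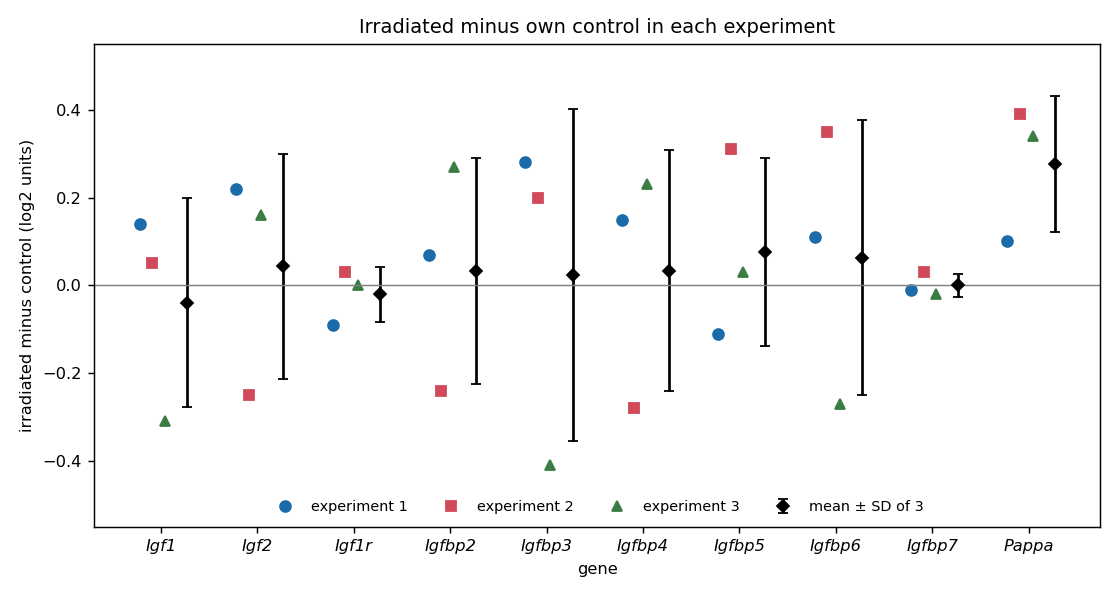
Irradiated minus own control (log2 units) of each gene in experiments 1 to 3, with the mean and SD of the 3 differences as a black diamond and bar. The means of the first 9 genes lie between -0.04 and 0.077 although single experiments reach 0.35 and -0.41, and Igfbp7 stays within 0.03 of 0.

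Igfbp3, the main IGF carrier of blood, had nearly equal levels in the 3 controls and unequal ones after irradiation. Irradiated cultures read 9.44, 9.38 and 8.80, against 9.16, 9.18 and 9.21 in controls, with an SD of 0.35 in the irradiated and 0.025 in the control arrays (n = 3 each). The irradiated culture of experiment 3 was the lowest of the 6 and those of experiments 1 and 2 were the highest. The differences of 0.28, 0.20 and -0.41 gave a mean of 0.023 (95% interval -0.31 to 0.36) (limma, Benjamini-Hochberg adjusted p 0.995). The other probe set of Igfbp3, at a level of 8.255, had the same signs at smaller sizes, 0.03, 0.10 and -0.08. Whether the spread itself differed between the groups was not tested.

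Igfbp4, the main substrate of the protease, stood above 97.63% of genes on the array's scale. It read 11.82, 11.73 and 11.90 in irradiated cultures and 11.67, 12.01 and 11.67 in controls. The highest of the 6 arrays was the control of experiment 2, and the groups overlapped. The differences of 0.15, -0.28 and 0.23 averaged 0.033 (95% interval -0.24 to 0.31) (limma, Benjamini-Hochberg adjusted p 0.995). All 6 probe sets of Igfbp4, whose levels span 7.045 to 11.80, read it lower in the irradiated culture of experiment 2, by -0.43 to -0.26, and higher in that of experiment 3, by 0.23 to 0.38. In experiment 1 they ran from -0.09 to 0.15. These probe sets read the same RNA on the same arrays and are not replicates of the irradiation, and 3 of them are of types (_s_at and _x_at) that may also read related sequences. The plot of all probe sets shows how closely they follow each other. The mean of the fat-cell markers was also highest in the control of experiment 2, and it was lowest in the irradiated culture of that experiment. These markers differed by 0.063, -0.47 and -0.02 in experiments 1 to 3, and their part in the Igfbp4 values was not tested. Without the control of experiment 2 and without the block Igfbp4 stood at 0.15.

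**Figure D3:**
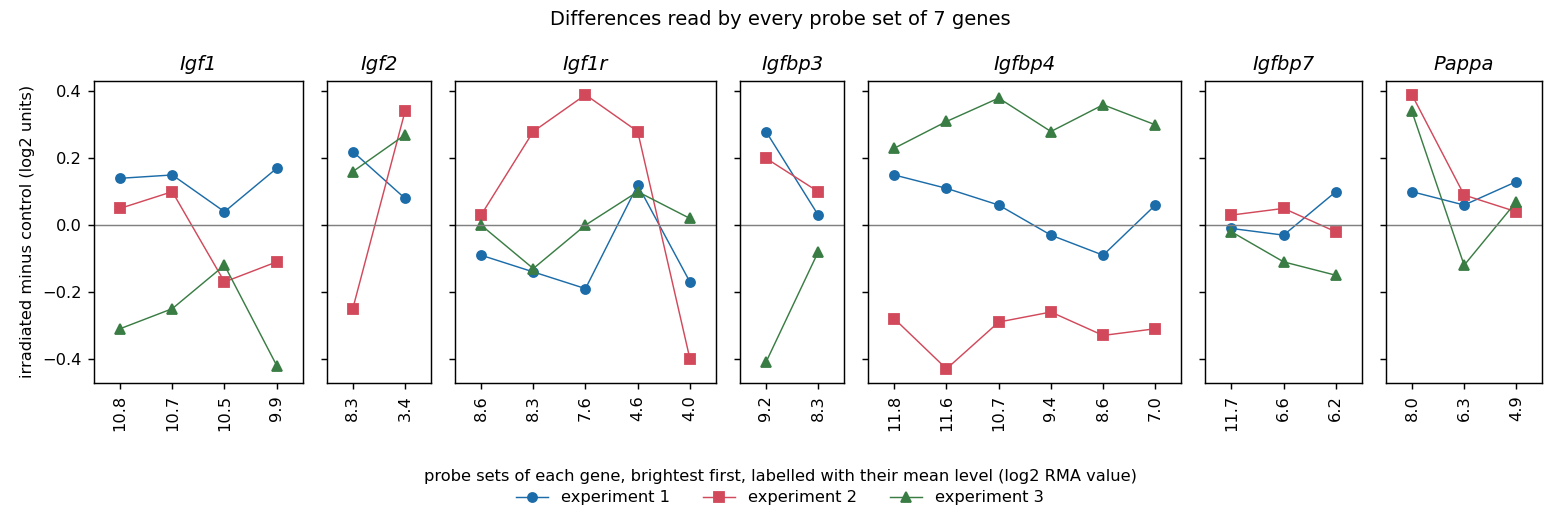
Irradiated minus own control (log2 units) for every probe set of 7 genes, brightest first, each labelled with its mean level. The 6 probe sets of Igfbp4 lie between -0.43 and -0.26 in experiment 2 and between 0.23 and 0.38 in experiment 3, whereas those of Igf1r spread from -0.40 to 0.39 in experiment 2 and the 3 of Pappa differ in size.

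Igfbp5, which binds to extracellular matrix and bone mineral, read 10.41, 10.34 and 10.27 in irradiated cultures, against 10.52, 10.03 and 10.24 in controls. Its differences were -0.11, 0.31 and 0.03, with a mean of 0.077 ± 0.21 log2 units (SD, n = 3; limma, Benjamini-Hochberg adjusted p 0.995), and the lowest of the 6 arrays was the control of experiment 2. A dimmer probe set at 6.59 stood at 0.04, -0.10 and 0.04. Igfbp2, a binding protein that preadipocytes are known to secrete, was dim at 4.36, 4.08 and 4.22 in irradiated and 4.29, 4.32 and 3.95 in control arrays, above only 24.31% of genes. Its differences of 0.07, -0.24 and 0.27 averaged 0.033 ± 0.26, and RMA compresses differences at such low levels. Igfbp2 and Igfbp5 lie next to each other on chromosome 1, with 0 annotated genes between them. In experiment 2 Igfbp2 stood at -0.24 and the bright probe set of Igfbp5, of the _s_at type, at 0.31. The dimmer probe set of Igfbp5, at -0.10, had the sign of Igfbp2 there.

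Igfbp6, which prefers IGF2 over IGF1, read 6.60, 6.35 and 6.05 in irradiated cultures, against 6.49, 6.0 and 6.32 in controls. The differences of 0.11, 0.35 and -0.27 averaged 0.063 ± 0.31 log2 units (SD, n = 3) (limma, Benjamini-Hochberg adjusted p 0.995). The SD of Igfbp6 over the 6 arrays, 0.24, was the highest of the 10 genes and above 94.64% of all genes, and 1 probe set reads it. Igfbp7, a secreted protein that binds IGFs only weakly and is made by many stromal cells, had the smallest spread of differences of the 10 genes on the brightest probe sets. It read 11.83, 11.63 and 11.54 in irradiated cultures and 11.84, 11.60 and 11.56 in controls. Each irradiated culture was within 0.03 of its own control, and the 95% interval of the mean difference ran from -0.18 to 0.18. The other 2 probe sets of Igfbp7 differed more, by -0.03, 0.05 and -0.11 and by 0.10, -0.02 and -0.15 in experiments 1 to 3.

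The level of Igfbp7 was set beside the experiments as well. Both cultures of experiment 1 read higher than all those of experiments 2 and 3, with experiment means of 11.835, 11.615 and 11.55. Igf1r had means of 8.725, 8.475 and 8.48 in the same order, and Igfbp6 of 6.545, 6.175 and 6.185. An F test in limma over the 3 experiments, with irradiation as a term, gave an unadjusted p of 0.0452 for Igfbp7, 0.0596 for Igf1r and 0.0788 for Igfbp6. After Benjamini-Hochberg over 18193 genes their adjusted p values in limma were 0.909, 0.909 and 0.919, and 0 of the 10 genes passed. The test called 0 of 18193 genes (0%), with 994 at an unadjusted p under 0.05 (5.46%), beside 1 of the 10 here. A 2nd probe set of Igfbp7, at a level of 6.56, had experiment means of 6.705, 6.545 and 6.425. The third, at 6.23, had 6.27, 6.24 and 6.175, and there the control of experiment 1 (6.22) was below the other 2 controls (both 6.25).

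Across the 6 arrays Igf1r and Igfbp7 had the highest Pearson correlation of any pair of the 10 genes, r = 0.953, and Igf2 and Igfbp2 the next, r = 0.93. The points share experiments and one normalization, and the pairs were picked after their values were seen. Igfbp2 is dim (mean level 4.20) and read by 1 probe set. The r of Igf2 is that of its bright probe set, which differed in sign from the dim one in experiment 2 (-0.25 and 0.34). The promoters of these 4 genes are shown because they form the pairs with the highest correlations. Each window holds 250 bases before and 50 bases after a transcript start, from RefSeq on GRCm38.p6, written 5′ to 3′ on the strand of the gene, and capitals mark the letters GGGCGG or, on the other strand, CCGCCC. This is the GC box that Sp1-family factors bind. Igf1r is at chr7:67952007-67952306 (plus strand) and Igfbp7 at chr5:77407996-77408295 (minus strand). Igf2 has 4 windows and Igfbp2 has 2, and the one with most matches is shown, chr7:142657447-142657746 (minus strand) for Igf2 and chr1:72824230-72824529 (plus strand) for Igfbp2.
Igf1r: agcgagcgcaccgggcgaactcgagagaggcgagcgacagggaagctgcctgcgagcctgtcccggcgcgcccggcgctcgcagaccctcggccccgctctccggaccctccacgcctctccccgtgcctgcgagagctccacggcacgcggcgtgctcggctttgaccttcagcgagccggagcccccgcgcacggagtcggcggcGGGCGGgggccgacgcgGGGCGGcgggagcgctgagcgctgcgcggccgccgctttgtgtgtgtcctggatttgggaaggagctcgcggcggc
Igfbp7: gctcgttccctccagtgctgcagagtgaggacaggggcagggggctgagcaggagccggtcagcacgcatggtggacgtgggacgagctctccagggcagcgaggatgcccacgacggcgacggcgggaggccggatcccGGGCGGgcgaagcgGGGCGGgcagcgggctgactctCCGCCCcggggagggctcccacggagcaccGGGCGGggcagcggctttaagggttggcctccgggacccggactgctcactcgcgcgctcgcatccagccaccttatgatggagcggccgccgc
Igf2: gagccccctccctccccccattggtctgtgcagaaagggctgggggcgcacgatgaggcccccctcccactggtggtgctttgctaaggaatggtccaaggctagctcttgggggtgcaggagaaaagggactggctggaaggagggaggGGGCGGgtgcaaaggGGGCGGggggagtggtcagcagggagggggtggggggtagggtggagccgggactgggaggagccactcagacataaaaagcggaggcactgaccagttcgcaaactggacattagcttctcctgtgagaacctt
Igfbp2: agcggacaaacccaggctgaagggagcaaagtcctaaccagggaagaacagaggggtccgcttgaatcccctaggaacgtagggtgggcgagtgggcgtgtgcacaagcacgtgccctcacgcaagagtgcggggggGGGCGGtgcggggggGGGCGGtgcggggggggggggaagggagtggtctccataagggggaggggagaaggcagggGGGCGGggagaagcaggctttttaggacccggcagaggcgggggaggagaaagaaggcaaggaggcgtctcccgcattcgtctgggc
The windows hold 2, 4, 2 and 3 matches in this order. At least 1 match stood in 35.7% of the 32851 promoter windows of the table. The windows not shown held 0, 0 and 1 matches for Igf2 and 0 for Igfbp2. Of the other members, Igf1, Igfbp3, Igfbp4, Igfbp5 and Igfbp6 had 1 window each, with 0 matches in it, and Pappa was not matched. Because Igf2 and Igfbp2 are shown by their window with most matches, their counts cannot be compared with those of genes with 1 window. A match describes the letters and is not evidence of binding.

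Pappa, the protease, read 8.12, 8.09 and 8.20 in irradiated cultures and 8.02, 7.70 and 7.86 in controls on its brightest probe set. All 3 irradiated arrays were above all 3 controls, as for 2.9% of all genes, and the choice of the gene used these values. The differences were 0.10, 0.39 and 0.34, with a mean of 0.28 ± 0.16 log2 units (SD, n = 3), or 1.21-fold. Over all genes 8.23% were higher in the irradiated culture of all 3 experiments. The smallest difference of Pappa was 0.10, and the rule that picked the gene required it to be above 0. Irradiated arrays spanned only 8.09 to 8.20, and the controls 7.70 to 8.02, with an SD of 0.057 among irradiated and 0.16 among control arrays (n = 3 each), a gap in spread that was not tested.

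The other 2 probe sets of Pappa showed less. One at a level of 6.27 stood at 0.06, 0.09 and -0.12, with a mean of 0.01, and one at 4.94 at 0.13, 0.04 and 0.07, with a mean of 0.08. Averaged over all 3 probe sets the difference was 0.12. Among the RNAs of the known substrates of the protease, none was higher in the irradiated culture of all 3 experiments, beside 8.23% of all genes. The protease cuts the proteins, which were not measured here. Where Pappa stood at 0.10, 0.39 and 0.34, Igfbp4 stood at 0.15, -0.28 and 0.23, Igfbp5 at -0.11, 0.31 and 0.03 and Igfbp2 at 0.07, -0.24 and 0.27.

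Marker lists were set beside Pappa. The mean of the stromal markers differed by 0.061, 0.10 and 0.019 in experiments 1 to 3. It lay at 9.10 to 9.25 in irradiated and 9.08 to 9.18 in control arrays. In experiment 1 the dim Thy1 was at 0.50, and the other stromal markers lay between -0.10 and 0.11. Over the 3 experiments the mean differences of Eng, Cd44, Vcam1 and Alcam were below 0, and those of the others above 0. The fat-cell and macrophage lists, given above, were above 0 in 1 and in 2 of the 3. The mean of the smooth muscle markers had the sign of Pappa in experiments 2 and 3 and differed by -0.26, 0.42 and 0.31. It lay at 7.78 to 7.92 in irradiated and 7.43 to 8.05 in control arrays. Tagln (0.34) and Acta2 (0.23) had the highest mean differences of that list, and Myh11 (-0.073) was the only one below 0. The mean of the osteoblast markers differed by -0.15, 0.53 and 0.395, with 6.945 to 7.18 in irradiated and 6.51 to 7.335 in control arrays. Of these, Sp7 stood apart in experiment 1, at 0.23, and was at 0.13 and 0.20 in experiments 2 and 3. The control of experiment 2 was lowest of the 6 arrays in the smooth muscle and osteoblast lists and on the brightest probe sets of Pappa, Igfbp5 and Igfbp6. It was also lowest on the Pappa probe set at 6.27 (6.22). It was not lowest on the Pappa probe set at 4.94 (4.96, against 4.83 and 4.92 in the other controls) or the dimmer one of Igfbp5 (6.62, against 6.61 and 6.54). The control of experiment 3 was close to that of experiment 2 in the osteoblast list (6.55 against 6.51), and that of experiment 1 was highest in both lists. In experiment 1 the means of these 2 lists were lower in the irradiated culture while Pappa was at 0.10. Without the control of experiment 2, and without the block, Pappa stood at 0.20, Igfbp5 at -0.04 and Igfbp6 at -0.072. The part of these markers in the Pappa values was not tested.

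**Figure D4:**
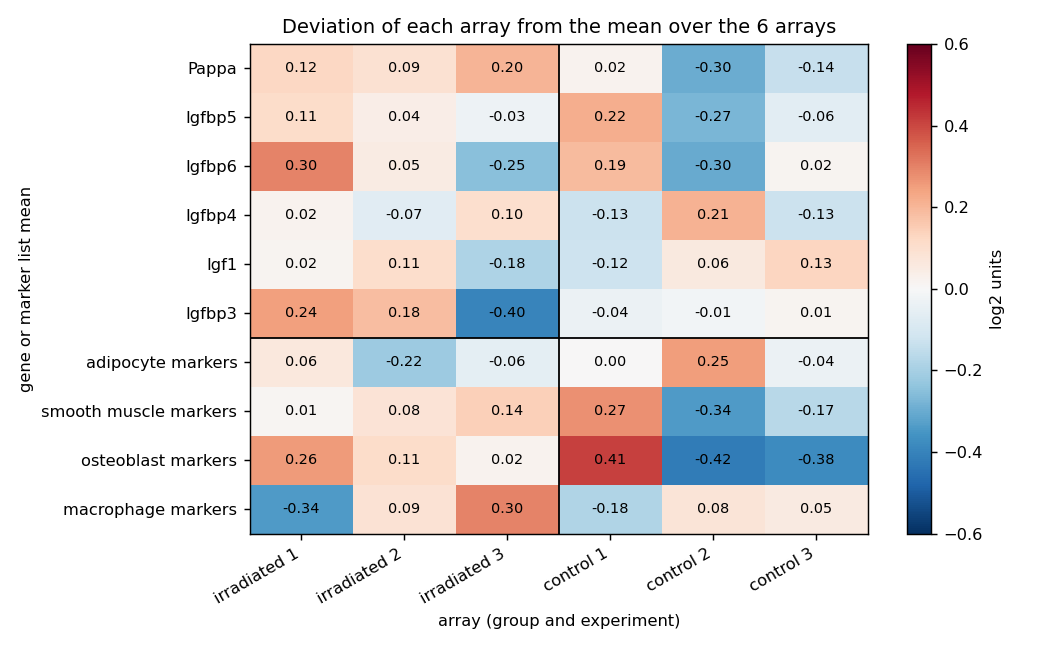
Deviation (log2 units) of each array from the mean over the 6 arrays, for the brightest probe sets of 6 genes and for the mean of 4 marker lists. The 3 irradiated arrays are left of the line and the 3 controls right of it. The control of experiment 2 is low in Pappa (-0.30), Igfbp5 (-0.27), Igfbp6 (-0.30) and in the smooth muscle (-0.34) and osteoblast (-0.42) markers, and high in Igfbp4 (0.21) and the fat-cell markers (0.25). In smooth muscle and osteoblast markers the control of experiment 1 is high (0.27 and 0.41) and that of experiment 3 low (-0.17 and -0.38). Among irradiated arrays, fat-cell markers are low in experiment 2 (-0.22), and macrophage markers run from -0.34 to 0.30.

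The genes whose level most resembled that of Pappa over the 6 arrays were Map4k5, a kinase (r = 0.982), Cenpi, a centromere protein (r = 0.959), and Tpm4, a tropomyosin of the actin cytoskeleton (r = 0.949), out of 1442 genes that reached the median level and had an SD of at least 0.15. For Igfbp6 they were Ddit4l, an inhibitor of mTOR signalling (r = 0.995), Rprm, a cell cycle arrest gene (r = 0.993), and Pdp1, a phosphatase that activates pyruvate dehydrogenase (r = 0.987). For Igfbp3 they were Zfp651, a zinc finger gene (r = 0.979), Gulp1, an engulfment adaptor (r = 0.972), and Mapre2, a microtubule-binding protein (r = 0.952). The 6 arrays share 3 experiments and one normalization, and these correlations are descriptions.

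Other parts of the pathway gave no call either. Of 56 measured genes in 4 lists, limma called 0 higher and 0 lower. Of the 56, 3 had an unadjusted p under 0.05 in limma, beside 603 of all 18193 genes (3.31%). The list of other receptors, carriers and modulators (13 of 15 measured) had 8 genes above 0 and 5 below, with a median of 0.013 log2 units beside -0.01 over all genes. Its smallest p values belonged to the mRNA-binding Igf2bp1 (-0.14), the insulin receptor-related receptor Insrr (0.17) and Igfbpl1 (-0.13). Adaptors and the PI3K-Akt branch, which carry the receptor's signal inside the cell, had 9 genes above 0, 16 below and 1 at 0 among 26 of 29 measured, with a median of -0.018. Tsc2, an inhibitor of the growth kinase mTOR, read 7.70, 7.49 and 7.76 in irradiated cultures and 7.92, 7.81 and 7.97 in controls. Its difference was -0.25 (SE 0.078), with an unadjusted p of 0.0162 and a Benjamini-Hochberg adjusted one of 0.995 in limma. The kinases Akt1 and Akt2 were both at -0.19, at -0.25, -0.27 and -0.06 in experiments 1 to 3 for Akt1 and -0.06, -0.46 and -0.06 for Akt2.

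The growth hormone axis, which controls Igf1 in liver, held 8 measured genes, 3 above 0 and 5 below, with a median of -0.053. A pair of cytokine-signalling inhibitors stood on opposite sides. Socs3 read 10.07, 10.19 and 10.13 in irradiated cultures, against 9.88, 9.92 and 9.96 in controls, a difference of 0.21 (SE 0.078; unadjusted p 0.0319 in limma). The dim Socs1 read 4.49, 4.20 and 4.26, against 4.67, 4.45 and 4.42, a difference of -0.20 (SE 0.077; unadjusted p 0.0400 in limma). Neither passed, and the groups of Socs1 overlapped while those of Tsc2 and Socs3 did not, as for 8.26% of all genes (limma, Benjamini-Hochberg adjusted p 0.995 for Socs3 and Socs1). Stat5b, a transcription factor downstream of the growth hormone receptor, had the next smallest p of this list and stood at -0.07, -0.09 and -0.21 in experiments 1 to 3. The CCN family and other genes that carry an IGFBP domain had 7 of 9 genes above 0, with a median of 0.02. Its smallest p values belonged to Ccn5, which stood at -0.24, 0.59 and 0.05 in the 3 experiments, Esm1 at 0, 0.08 and 0.06, and Ccn4 at -0.42, 0.27 and 0.31.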

How the data were processed

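Affymetrix arrays of 6 cultures were used, 3 irradiated and 3 control, grouped by their titles and paired by the replicate number in them. That number was taken as the experiment, which the titles do not state. The authors made the deposited log2 values, 1 per probe set and culture, with RMA. Per the submitters' processing notes RMA, affy and limma were used, with versions not given in the sources used here. The log base was read from the values' range, 1.73 to 14.53. Of 45101 probe sets 64 are array controls. Symbols came from the platform annotation, which gives exactly 1 symbol to 34945 probe sets, and the 10 genes matched a RefSeq table by Entrez identifier. No filter on dim probe sets was used, and an array has no read depth.

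limma (version 3.58.1, R 4.3.3) with lmFit and eBayes fitted all genes, with the experiment as a block, because the series' design text sets each irradiated culture against the control beside it. Adjusted p values are Benjamini-Hochberg over all genes or probe sets, with a threshold of 0.05, and intervals are moderated ones at 95%. The fit has 2 residual and 4.66 prior degrees of freedom. Cultures of one experiment deviated from their group means with correlations of 0.0873, -0.0651 and -0.0292 in experiments 1 to 3. Irradiated cultures and controls of other numbers had correlations from -0.0731 to 0.113. Only in experiment 1 was the value of the same number the highest, so these correlations do not show the pairing. The scripts were tested on simulated data. The genes and lists were chosen with earlier results of these data known. All 10 genes are named, with the 3 genes of smallest p per pathway list and the 3 most correlated genes for Pappa and the 2 most variable others. Alternatives were other block settings, centring, eBayes settings, a filter on dim genes, probe set averages and leaving out experiments or control arrays.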

Additional observations from a re-analysis of the deposited data

How the results depend on the processing

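The counts of called genes, probe sets, pathway genes and members between irradiated and control cultures were 0 under every alternative run, among them no replicate block (0 genes, with 649 at an unadjusted p under 0.05), a random block, median centring and robust moderation, and the lowest adjusted p of the 9 tested members was 0.926 in limma. Between experiments the count of genes called was 0, and 1 with median centring, 1 at or above the median level, 1 on probe set averages, 1 without the irradiation term and 2 with robust moderation; 0 members were among them. The signs of the 9 members were not stable, with 18 of 97 values reversed. The values of Igfbp7 are among the 97 and could not be counted as reversed, because its mean was 0. Leaving out 1 experiment gave ranges of -0.13 to 0.095 log2 units for Igf1, -0.045 to 0.19 for Igf2, -0.045 to 0.015 for Igf1r, -0.085 to 0.17 for Igfbp2, -0.105 to 0.24 for Igfbp3, -0.065 to 0.19 for Igfbp4, -0.04 to 0.17 for Igfbp5 and -0.08 to 0.23 for Igfbp6. Igf1r was at 0.0067 on the mean of its probe sets. In fits without the block, chosen after seeing the data, leaving out the control of experiment 3 gave 0.013 for Igf1, -0.062 for Igf2, -0.085 for Igfbp2 and -0.023 for Igfbp4, and leaving out that of experiment 2 gave -0.04 for Igfbp5 and -0.072 for Igfbp6. Pappa ranged from 0.12 on the mean of its probe sets to 0.365 without experiment 1. The cause of these shifts was not tested, and no irradiated array was left out alone. With 3 arrays per group and adjustment over all genes, a count of 0 calls does not show that moderate differences of single genes were absent. Tsc2, at -0.25 (SE 0.078), had an adjusted p of 0.995 in limma. The size of difference that the test could call is not given here. For the 9 tested members the 95% intervals, all within 1.3-fold of no change, bound the mean difference of the brightest probe set. Values near the bottom of the array's scale are the least certain.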
